A study of Mus musculus with 23 samples.

Results

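The state of F9 cells after 48 h of all-trans retinoic acid (RA) was described across genes from 6 mRNA libraries. The groups compared were cells given RA at 1e-07 M for 48 h, with 2 libraries, and untreated cells at 0 h, with 4 libraries, chosen by the sample titles from 14 mRNA libraries and 23 samples in all. F9 is an established mouse embryonal carcinoma line that was plated on gelatine before treatment, and every group came from that 1 line. The other groups set beside these are RA for 24 h at the same dose, with 2 libraries, and cells kept for 48 h in 0.001% dimethyl sulfoxide (DMSO), the solvent of RA, with 1 library. The labels do not say whether replicates came from separate cultures, so p-values describe how these libraries vary, and that variation may be technical.

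As background, embryonal carcinoma cells are the stem cells of teratocarcinomas, and they keep the transcription factors of the early embryo, such as POU5F1 (OCT4) and SOX2. RA enters the cell, binds nuclear receptors (RARs paired with RXRs) that sit on repeats of a short DNA motif, and turns F9 cells in monolayer toward primitive endoderm. Primitive endoderm forms on the surface of the inner cell mass that faces the blastocyst cavity, and parietal endoderm and visceral endoderm arise from it. Parietal endoderm lays down a thick basement membrane of laminin and type IV collagen, and visceral endoderm takes up and secretes nutrients and serum proteins.

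Values are counts per 1000000 reads in genes (CPM), scaled by TMM, a normalization that corrects for the few genes that take many reads. Gene totals lay between 7078941 and 10948932 counts in the 14 libraries. The libraries fell into a pair of sets: replicate 1 of each group, the DMSO libraries included, had 57.3 to 59.43% of its assigned and unassigned reads outside any gene, and the rest had 52.51 to 53.77%. The difference between sets was called in 6794 of 16155 tested genes (42.1%), so log2 changes below come from a fit with a term for the set unless stated otherwise. Ratios of counts and lower bounds of fold changes come from counts pooled over the libraries of each group, without that term. Log2 changes are given ± the standard error, with Benjamini-Hochberg adjusted p from edgeR's quasi-likelihood F-test over all tested genes, and genes with an adjusted p below 0.05 are spoken of as called. In a mixed culture, fewer cells of a kind and less RNA per cell cannot be told apart.

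The label was checked against defining markers of cell types. All 8 markers of extraembryonic endoderm rose, and their summed level went from between 57.96 and 115.6 CPM in the 0 h libraries to 1477 and 1279 CPM in 48 h replicates 1 and 2, against 106.5 CPM in DMSO at 48 h. The 9 parietal markers all rose, from a sum between 616.2 and 1013 CPM to 8309 and 5504 CPM. The 9 visceral markers went from a sum between 2.328 and 8.559 CPM to 142.6 and 128.3 CPM. Of these 7 could be tested and were called higher. Some, Ttr and Apob among them, passed the filter for low counts only through the RA libraries, so their count is not read as support. The same holds for the counts of extraembryonic and parietal markers, where Foxa2 and Plat are such members. Afp and Apoa1, both without a count at 0 h, stayed at or below 1.001 CPM. All 6 markers of pluripotent cells fell, and their sum went from between 3643 and 5024 CPM to 1703 and 883.9 CPM, so they were lower at 48 h but far from absent. Summed levels are led by the most abundant members and by long genes.

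Between 48 h of RA and 0 h, 7881 of 16155 tested genes were called (48.8%), 4175 higher (25.8%) and 3706 lower (22.9%). A change of at least 1 on the log2 scale was reached by 2774 called genes that were higher (17.2%) and 1238 that were lower (7.66%). The median log2 change over all tested genes was 0.016. Of the 7881 called genes, 7847 changed in the same direction in both library sets, a share that the call itself largely sets. The count depends on the model and on the libraries, with 4766 genes called without the set term (2826 higher and 1940 lower), 6091 without 48 h replicate 1, 5096 without 48 h replicate 2 and 5146 in the second set alone.

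**Figure D1:**
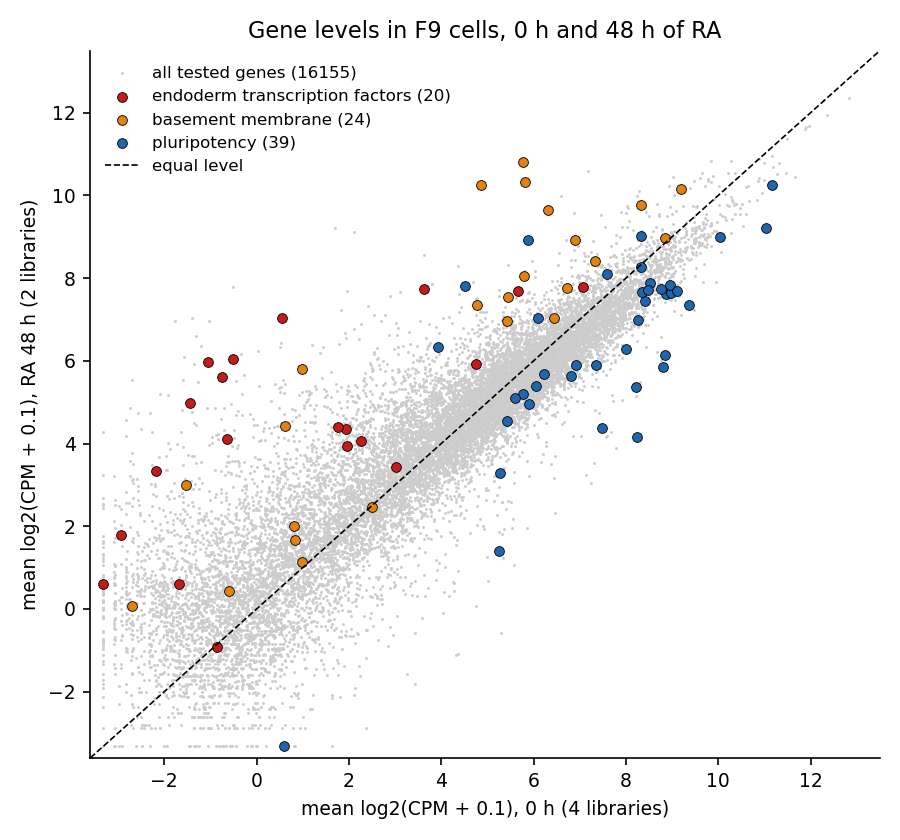
Mean level of each tested gene at 0 h (horizontal axis, 4 libraries) against its mean level at 48 h of RA (vertical axis, 2 libraries), both as log2 of CPM + 0.1; grey points are all 16155 tested genes and colours mark 3 gene lists. Of the tested endoderm transcription factors 18 of 20 were called higher, and of the tested pluripotency genes 28 of 39 were called lower. The first count includes genes that passed the filter for low counts through RA libraries.

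Among the largest increases, where the 48 h mean had to reach 5 CPM and both 48 h libraries had to lie above all 0 h libraries, were those of Cyp26b1, Hoxc8, Hoxc9, Gfra3, Ttr, Hoxb2, Hoxb6, Gpr50, Habp2, Cyp1b1 and Foxf2. Gpr50, an orphan receptor related to the melatonin receptors, stood at 0.15, 0.466, 0.421 and 0 CPM in 0 h replicates 1 to 4 and at 139 and 113 CPM in 48 h replicates 1 and 2. Its log2 change was 8.56 ± 0.49 (adjusted p = 1.29e-07). It was near the limit of detection in every 0 h library and abundant in both 48 h libraries. Foxf2, a forkhead transcription factor, had 0.15, 0, 0 and 0.0973 CPM at 0 h and 38.5 and 21.9 CPM at 48 h, a ratio of counts of 545 (95% interval 150 to 4510). Cyp1b1, a cytochrome P450 that oxidises steroids and retinoids, went from at most 0.15 CPM at 0 h to 9.53 and 43.4 CPM, a ratio of 349 (interval 119 to 1700). Gfra3, a co-receptor of the GDNF family, had no count at 0 h and 10.7 and 8.17 CPM at 48 h, at least 115-fold higher if a floor of 3 counts in the 0 h group is taken. These intervals and floors cover counting error only.

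The genes with the largest decreases by the same rule were Ccno, Clnk, Grhl2, Tgm3, Vrtn, Evx1, Rasgrp2, Esrp1, Kirrel2, Rxrg, Myb and Pcdh17. Rasgrp2, an exchange factor that activates the small GTPase RAP1, stood at 55.8, 43.3, 56.9 and 38.3 CPM in the 0 h libraries and at 2.15 and 1.83 CPM at 48 h (log2 change -4.63 ± 0.31, adjusted p = 7.86e-08). Myb, a transcription factor of blood progenitors, went from 27.4, 44.7, 34.0 and 26.3 CPM to 1.33 and 1.67 CPM (-4.27 ± 0.48, adjusted p = 1.44e-05). Clnk, an adaptor of immune receptor signalling, went from 11.1, 9.03, 10.1 and 12.7 CPM to 0.205 and 0.167 CPM (-5.77 ± 0.63, adjusted p = 7.17e-06). In DMSO at 48 h the same 3 genes stood at 24.2, 22.8 and 5.31 CPM, above both RA libraries but below every 0 h library in each case.

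Several transcription factors that specify endoderm were among the clearest increases. Of 20 on the list, all tested, 18 rose, 0 fell and 2 were not called, with a median log2 change of 3.31 (the same with Gata5 at its lower bound) against 0.016 over all genes. Some members, Foxa2 and Gata5 among them, passed the filter for low counts through RA libraries, so this count is not read as support. Gata6, the GATA factor that starts primitive endoderm in the blastocyst, stood at 3.61, 0.652, 0.421 and 3.02 CPM at 0 h and at 141 and 122 CPM at 48 h (6.00 ± 0.40, adjusted p = 5.88e-07). Gata4, its partner, went from 15.8, 8.38, 14.9 and 11.1 CPM to 252 and 182 CPM (3.90 ± 0.26, adjusted p = 2.24e-07). Sox17, an SRY-box factor of endoderm, went from 0.751, 0.466, 0.421 and 0.389 CPM to 78.3 and 30.0 CPM (6.22 ± 0.32, adjusted p = 1.32e-08). For all 3 genes the 48 h libraries lay many times above the highest 0 h library. Sox7, a related factor of parietal endoderm, already stood at 84.2, 57.3, 39.3 and 34.7 CPM at 0 h and reached 224 and 192 CPM, a smaller increase of 1.90 ± 0.21 (adjusted p = 1.35e-05).

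The forkhead factors split by gene. Foxa2 went from 0.601, 0.186, 0.211 and 0.195 CPM to 30.2 and 32.8 CPM (6.64 ± 0.48, adjusted p = 1.81e-07), and Foxa1 from 0.601, 0.372, 0.948 and 0.584 CPM to 68.2 and 64.7 CPM (6.71 ± 0.23, adjusted p = 4.73e-10). Hnf4a, a nuclear receptor of visceral endoderm and liver, reached 22.4 and 13.3 CPM from at most 0.902 CPM (4.66 ± 0.43, adjusted p = 1.46e-06). The related Foxa3 was not called and stayed between 0.15 and 0.738 CPM in all 6 libraries. Gata5 had no count at 0 h and 0.923 and 2.17 CPM at 48 h, at least 19.9-fold higher, and its call was lost with DESeq2 (adjusted p = 0.301).

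**Figure D2:**
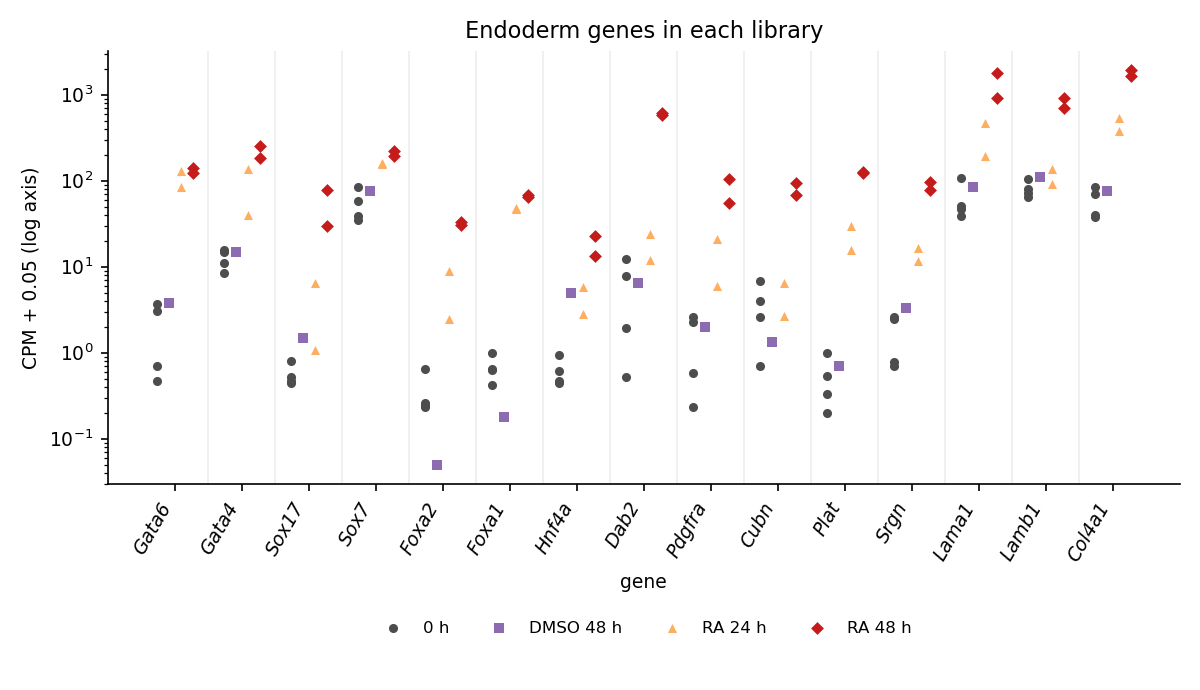
Levels of 15 genes of extraembryonic endoderm in each library, as CPM + 0.05 on a log axis, so that a library without a count is drawn at 0.05; colours mark 0 h (4 libraries), DMSO at 48 h (1), RA at 24 h (2) and RA at 48 h (2). Every gene drawn lay higher in both 48 h RA libraries than in all 0 h libraries and the DMSO library, for example Sox17 at 78.3 and 30.0 CPM against at most 0.751 CPM at 0 h.

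Receptors, endocytic proteins and signals of endoderm rose nearly throughout. Of 20 listed, 19 rose, 0 fell and 1 was not called (median log2 change 3.02). Some of them passed the filter for low counts through RA libraries, so this count is not read as support. Dab2, the adaptor that carries cargo receptors into clathrin-coated pits and that sorts primitive endoderm to the surface, stood at 7.81, 0.466, 1.9 and 12.2 CPM at 0 h and at 574 and 612 CPM at 48 h (6.64 ± 0.77, adjusted p = 0.000279). In the second library set alone the log2 change of Dab2 was 7.00, and its adjusted p was 0.0562. Pdgfra, the receptor tyrosine kinase that marks primitive endoderm, went from 2.25, 0.186, 0.527 and 2.53 CPM to 104 and 54.7 CPM (5.53 ± 0.48, adjusted p = 3.58e-06). Both were low and spread over more than 10-fold among the 0 h libraries, and high in both 48 h libraries.

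The vitamin B12 and lipoprotein uptake receptor of visceral endoderm was raised in its parts. Cubn (cubilin) went from 3.91, 0.652, 2.53 and 6.71 CPM to 94.3 and 68.6 CPM (4.28 ± 0.61, adjusted p = 0.000278), and Amn (amnionless), which brings cubilin to the membrane, from at most 0.843 CPM to 3.38 and 2.58 CPM (2.58 ± 0.54, adjusted p = 0.00133). Lrp2 (megalin), their partner, stood at 73.3, 29.1, 40.0 and 115 CPM at 0 h and at 326 and 219 CPM at 48 h (1.97 ± 0.50, adjusted p = 0.0101). Lrp2 was no longer called without 0 h replicate 1 (adjusted p = 0.0583), without 48 h replicate 1 (adjusted p = 0.061) or in the second set alone (adjusted p = 0.192). Lrpap1, the chaperone of these receptors, went from between 104 and 132 CPM to 986 and 594 CPM (2.66 ± 0.20, adjusted p = 5.76e-07). Among secreted signals, Ihh, a hedgehog ligand of visceral endoderm, rose to 17.1 and 8.26 CPM from at most 1.2 CPM (3.90 ± 0.39), and Bmp2 rose to 19.8 and 15.2 CPM from at most 1.8 CPM (4.48 ± 0.55). Pth1r, the receptor for parathyroid hormone related peptide, through which F9 cells are driven on to parietal endoderm, rose from between 1.05 and 2.04 CPM to 37.4 and 21.5 CPM (3.88 ± 0.32, adjusted p = 5.27e-07).

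Visceral endoderm products differed widely in level, and their sum went from between 221.7 and 346.5 CPM at 0 h to 943.2 and 1174 CPM at 48 h. In DMSO at 48 h the sum was 534.6 CPM, above every 0 h library. Apoe, which led the 0 h sum at 188 to 304 CPM, stood at 436 CPM in DMSO and at 354 and 303 CPM at 48 h of RA. The list has 24 members with a row of counts, of which 11 passed the filter for low counts and rose. Those 11 include members that passed only because of the 48 h libraries, so their count is not read as support. The other 13 stayed at or below 1.0 CPM in every 0 h and 48 h library, and 5 of them had no count at all in these libraries. Ttr (transthyretin), a carrier of thyroid hormone and retinol, had 0, 0.0931, 0 and 0 CPM at 0 h, and 2.97 and 28.3 CPM in 48 h replicates 1 and 2, a ratio of counts of 629 (interval 112 to 24900). The 48 h replicates of Ttr lay far apart, and DESeq2 did not call it (adjusted p = 0.129). Apob, the structural protein of lipoproteins, reached 1.02 and 4.5 CPM from at most 0.195 CPM (5.07 ± 0.66, adjusted p = 3.05e-05). Amot (angiomotin), a junction protein that is strong in visceral endoderm, went from 8.71, 9.4, 13.1 and 20.5 CPM to 251 and 558 CPM (5.01 ± 0.37, adjusted p = 2.76e-06). Dkk1, a secreted WNT inhibitor, reached 63.4 and 31.8 CPM from at most 1.17 CPM (6.19 ± 0.61, adjusted p = 9.16e-06). Habp2, a secreted serine protease, had no count at 0 h and 10.8 and 3.75 CPM at 48 h, at least 85.5-fold higher, and was not called by DESeq2 (adjusted p = 0.175). Afp, the classical product of mature visceral endoderm, was left untested at 0 CPM in all 0 h libraries and 0.102 and 1.0 CPM at 48 h.

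Genes linked with parietal endoderm and plasminogen activation rose, with 21 of 23 tested members higher, 0 lower and 2 not called (median log2 change 2.34). Without the set term 14 were higher. Members such as Plat and Aqp8 passed the filter for low counts through RA libraries, so the count is not read as support. Plat, the tissue plasminogen activator whose release is a textbook sign of RA-treated F9 cells, stood at 0.15, 0.279, 0.948 and 0.486 CPM at 0 h and at 127 and 122 CPM at 48 h (7.88 ± 0.32, adjusted p = 1.36e-09). Srgn (serglycin), a secreted proteoglycan core, went from 2.56, 0.652, 0.738 and 2.43 CPM to 77.4 and 97.6 CPM (5.73 ± 0.44, adjusted p = 1.07e-06). Nostrin, a trafficking adaptor, went from at most 0.211 CPM to 9.33 and 18.0 CPM (6.50 ± 0.43), and the water channel Aqp8 from at most 0.3 CPM to 9.84 and 6.09 CPM, a ratio of counts of 96.3 (interval 32.4 to 472). Thbd (thrombomodulin), a marker of mature parietal endoderm, reached only 2.36 and 2.17 CPM from between 0 and 0.838 CPM (2.86 ± 0.82, adjusted p = 0.0102). Its call was lost without the set term (adjusted p = 0.0618), with the replicate block (adjusted p = 0.0571) and without 48 h replicate 1 (adjusted p = 0.0732).

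Other members of that list included matrix and mesenchymal genes. Sparc, a matrix glycoprotein that binds collagen, was abundant at 0 h with 682, 462, 431 and 547 CPM and reached 1976 and 980.2 CPM (1.24 ± 0.13, adjusted p = 5.18e-06). Snai1, a repressor of epithelial genes, went from 3.16, 4.38, 7.06 and 2.53 CPM to 33.9 and 15.3 CPM (2.04 ± 0.44, adjusted p = 0.00245). Vim (vimentin) went from 622, 437, 312 and 656 CPM to 1244 and 1150.0 CPM (1.16 ± 0.22, adjusted p = 0.000865). Zeb1 was not called, at 9.17 to 33.7 CPM at 0 h and 34.1 and 33.8 CPM at 48 h (0.63 ± 0.33, adjusted p = 0.132), although without 0 h replicate 1 it was (adjusted p = 0.0388). The 48 h libraries of Sparc, Snai1 and Vim lay above every 0 h library, and those of Zeb1 did so by a margin far below the spread at 0 h.

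The chains of the basement membrane were raised selectively. Of 30 genes, 24 were tested, and 18 rose, 0 fell and 6 were not called (median log2 change 1.56). The other 6 stayed at or below 0.82 CPM. The called share was 75.0%, against 48.8% of all tested genes. Col4a5 passed the filter for low counts through RA libraries, so the count is not read as support. Col4a1 and Col4a2, which together form the common type IV collagen trimer, went from 84.2, 37.8, 39.8 and 69.5 CPM to 1914 and 1661 CPM, and from 54.5, 18.0, 17.7 and 41.6 CPM to 1479 and 1000.0 CPM. Their log2 changes were 4.83 ± 0.24 (adjusted p = 3.86e-08) and 5.04 ± 0.32 (adjusted p = 7.07e-07). For both genes 0 h replicates 1 and 4 lay above replicates 2 and 3.

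The Col4a1 and Col4a2 genes lie head to head on mouse chromosome 8 and are read in opposite directions. As background, they are held to share a promoter, which is why their windows are shown. The start bases given by RefSeq on build GRCm38.p6 are 21 bases apart, 11312826 for Col4a1 and 11312805 for Col4a2. By these starts the first bases of both transcripts overlap, and no stretch lies between the genes. Each window runs from 250 bases before to 50 bases after the start, and the windows share 78 bases. The part before each start therefore runs into the other gene, and each marked match lies in the stretch that the other gene transcribes. Capitals mark the CCAAT box, searched as CCAAT on both strands, which was found in 37.4% of 32851 promoters of the same length, so its presence is common.
Col4a1, chr8:11312777-11313076, minus strand: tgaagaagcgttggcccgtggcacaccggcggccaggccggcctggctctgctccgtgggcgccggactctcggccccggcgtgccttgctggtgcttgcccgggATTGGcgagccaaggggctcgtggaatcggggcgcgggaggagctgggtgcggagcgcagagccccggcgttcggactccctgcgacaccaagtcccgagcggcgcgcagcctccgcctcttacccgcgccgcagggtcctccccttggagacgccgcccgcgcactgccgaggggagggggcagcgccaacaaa
Col4a2, chr8:11312555-11312854, plus strand: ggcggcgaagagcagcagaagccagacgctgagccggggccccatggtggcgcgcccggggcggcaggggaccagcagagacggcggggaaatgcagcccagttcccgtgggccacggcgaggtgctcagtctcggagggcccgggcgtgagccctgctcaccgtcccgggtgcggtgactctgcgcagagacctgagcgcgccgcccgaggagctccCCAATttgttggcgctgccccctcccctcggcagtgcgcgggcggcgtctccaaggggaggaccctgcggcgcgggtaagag

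Laminin chains differed. Lama1, the alpha chain of the first laminin of the embryo, went from 107, 38.8, 46.8 and 50.3 CPM to 1777 and 926 CPM (4.22 ± 0.14, adjusted p = 4.42e-10). Lamb1, its beta chain, went from 79.9, 65.4, 71.7 and 105 CPM to 922 and 700.3 CPM (3.23 ± 0.17, adjusted p = 2.25e-08). Lamc1, its gamma chain, was already at 395, 309, 291 and 308 CPM and reached 1028 and 740.5 CPM (1.37 ± 0.11, adjusted p = 6.15e-07). All 3 chains of that laminin rose, each by a different amount. Lama5, the chain of the laminins of later epithelia, changed by 0.76 ± 0.16 (adjusted p = 0.00157) and was not called without the set term (adjusted p = 0.232).

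Among the linkers of the matrix, Nid1 (nidogen 1) rose by 1.97 ± 0.19, Nid2 by 0.88 ± 0.18 and Hspg2 (perlecan) by 1.73 ± 0.11 on the log2 scale, from 64.8, 746 and 216 CPM to 212, 1409 and 795 CPM in the replicate 1 libraries. Npnt (nephronectin), an integrin ligand, went from 0.601, 2.23, 1.58 and 1.95 CPM to 15.9 and 28.7 CPM (4.11 ± 0.27, adjusted p = 7.86e-08), and Tinagl1 from at most 3.27 CPM to 73.5 and 41.9 CPM (4.63 ± 0.30, adjusted p = 6.1e-08). Col18a1 was not called, at 348 to 582 CPM at 0 h and 526 and 477 CPM at 48 h (0.03 ± 0.14, adjusted p = 0.872).

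Enzymes that fold and crosslink collagen were mostly higher as well. Of 24 genes, 23 were tested, and 20 rose, 0 fell and 3 were not called (median log2 change 1.67). The called share was 87.0%, against 48.8% of all tested genes. Some members, P3h2 among them, passed the filter for low counts through RA libraries, so this count is not read as support. Serpinh1 (HSP47), the collagen chaperone of the endoplasmic reticulum (ER), went from 188, 117, 81.1 and 252 CPM to 1676 and 1424 CPM (3.21 ± 0.33, adjusted p = 3.28e-05). P4ha1 and P4ha2, catalytic subunits of a prolyl hydroxylase, reached 162 and 132 CPM from between 33.1 and 47.6 CPM, and 78.7 and 58.3 CPM from between 8.75 and 14.7 CPM. P3h2, another prolyl hydroxylase that acts on type IV collagen, rose from at most 0.681 CPM to 16.1 and 13.9 CPM (5.26 ± 0.65, adjusted p = 2.45e-05). Colgalt1, which adds galactose to collagen, was held tightly at 155 to 159 CPM in the 0 h libraries and reached 504 and 448 CPM (1.56 ± 0.10, adjusted p = 8.15e-08). The 3 that were not called were Fkbp10 (0.21 ± 0.13, adjusted p = 0.176), Loxl1 and Loxl3.

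The general folding and transport machinery of the ER moved by less, with 25 of 35 tested members higher, 1 lower and 9 not called (median log2 change 0.53). Creb3l2, the factor that raises secretory transport genes, stood out with a change from 9.17, 6.15, 3.48 and 5.54 CPM to 80.1 and 63.7 CPM (3.48 ± 0.21, adjusted p = 3.37e-08). Xbp1, a factor of the unfolded protein response, rose by 1.58 ± 0.12 to 127 and 158 CPM, and Sec24d, a coat protein that exports procollagen, by 1.29 ± 0.14 to 121 and 113 CPM. Hspa5 (BiP), the main ER chaperone, stood at 659, 749.6, 679 and 767 CPM at 0 h and at 977 and 1720.0 CPM at 48 h (0.97 ± 0.13, adjusted p = 3.63e-05). The member that fell was Mia2 (-0.36 ± 0.13, adjusted p = 0.0314), whose call was lost without any single one of 0 h replicates 1, 2 and 4 (adjusted p = 0.084, 0.0642 and 0.0523) or either 48 h replicate (adjusted p = 0.151 and 0.0605).

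Lysosomal genes rose in 24 of 26 cases, with 0 lower and 2 not called (median log2 change 1.33). The called share was 92.3%, against 48.8% of all tested genes. Ctsh (cathepsin H) passed the filter for low counts through RA libraries, so the count is not read as support. Lgmn (legumain), a lysosomal protease of visceral endoderm, went from 24.9, 34.0, 24.7 and 25.2 CPM to 184 and 175 CPM (2.75 ± 0.15, adjusted p = 1.65e-08). Ctsl (cathepsin L) went from 392, 256, 251 and 337 CPM to 1029 and 983 CPM (1.61 ± 0.15, adjusted p = 1.36e-06). Hexa and Gaa, which break down gangliosides and glycogen, rose by 1.85 ± 0.17 and 1.77 ± 0.12, and Lamp1, a membrane protein of every lysosome, by 0.47 ± 0.11 (adjusted p = 0.00249). The summed level of the list went from between 2914 and 3189 CPM to 6381 and 5799 CPM, and was 3649 CPM in DMSO at 48 h.

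**Figure D3:**
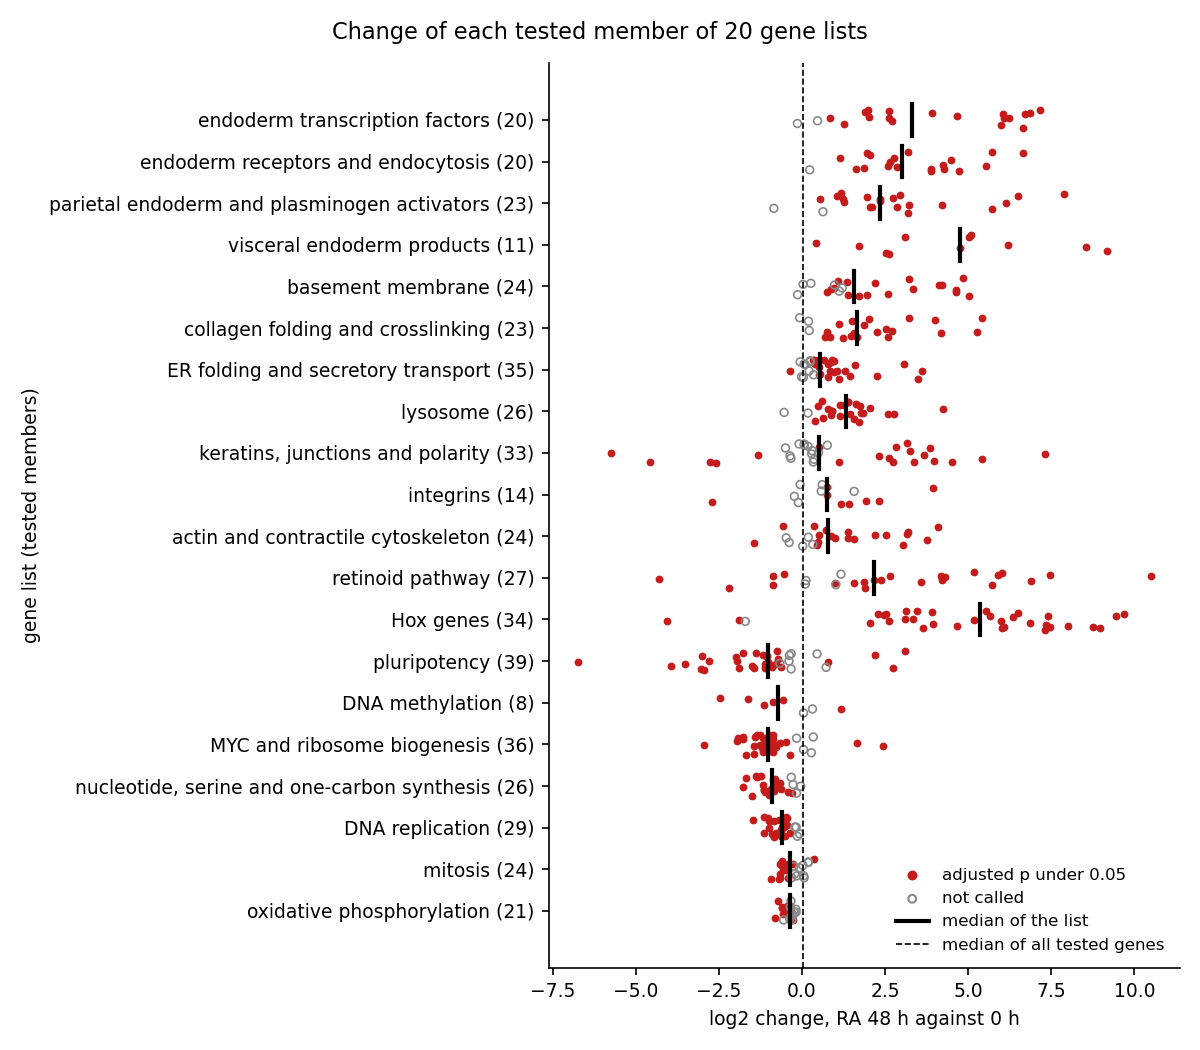
Fitted log2 change at 48 h of RA against 0 h for each tested member (points) of 20 gene lists, with the median of each list as a black bar and the median over all tested genes (0.016) as a dashed line; filled points passed an adjusted p of 0.05. Medians run from 5.36 for the Hox genes and 3.31 for the endoderm transcription factors to -1.02 for pluripotency and -1.03 for MYC and ribosome biogenesis. The Hox median was 4.45 with genes of 0 to 3 counts at 0 h set at their lower limits.

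Epithelial genes moved in both directions. Among keratins, junctions and polarity genes, 15 of 33 tested members rose, 5 fell and 13 were not called (median log2 change 0.50). The called share was 60.6%, against 48.8% of all tested genes. Krt8 and Krt18, the first keratins of the embryo and the textbook keratins of F9 endoderm, went from 3.91, 3.45, 11.2 and 5.74 CPM to 48.4 and 73.0 CPM (3.36 ± 0.36, adjusted p = 9.62e-06), and from 1.35, 1.86, 7.59 and 2.72 CPM to 18.4 and 64.7 CPM (3.86 ± 0.41, adjusted p = 9.03e-06). Dsp (desmoplakin) and Dsc2 (desmocollin 2), parts of desmosomes, reached 232 and 245 CPM from between 16.1 and 43.6 CPM (3.25 ± 0.28), and 16.1 and 40.5 CPM from between 0.15 and 1.4 CPM (5.43 ± 0.30). Cdh5, a cadherin best known from blood vessels, rose from at most 2.1 CPM to 52.3 and 27.1 CPM (4.50 ± 0.28, adjusted p = 4.09e-08). Krt20, without a count at 0 h, reached 1.84 and 2.17 CPM, at least 25.1-fold higher. Cdh2 (N-cadherin) went from 14.7, 14.4, 9.91 and 14.5 CPM to 70.7 and 96.8 CPM (2.63 ± 0.20, adjusted p = 2.81e-07).

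Cdh1 (E-cadherin) was not called: it stood at 218, 466, 724 and 350.5 CPM at 0 h and at 255 and 315 CPM at 48 h (-0.34 ± 0.27, adjusted p = 0.337), inside the 0 h range. The 5 that fell were Grhl2, Esrp1, Lgals3, Cdh3 and Epcam. Grhl2, a grainyhead factor of epithelia, went from 17.7, 43.3, 84.8 and 35.5 CPM to 0.307 and 1.0 CPM (-5.76 ± 0.65, adjusted p = 2.72e-05), and Esrp1, an epithelial splicing regulator, from 7.51, 30.5, 70.5 and 31.1 CPM to 0.615 and 1.42 CPM (-4.58 ± 0.56, adjusted p = 2.59e-05). Epcam, an adhesion protein of stem cells and epithelia, went from 96.6, 122, 188 and 118 CPM to 52.4 and 46.0 CPM (-1.33 ± 0.21, adjusted p = 0.00017). In Cdh1, Grhl2, Esrp1, Epcam and Cdh3 (54.0, 65.0, 82.9 and 44.6 CPM at 0 h), 0 h replicate 3 was the highest of the 4, and for Grhl2 and Esrp1 the 48 h libraries lay below all of them.

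Among all tested genes 48.8% were called, against 79.2% of tested actin and contractile genes and 57.1% of tested integrins. On the actin and contractile list 17 of 24 tested members rose, 2 fell and 5 were not called (median log2 change 0.79). Tagln (transgelin) went from 2.1, 1.49, 2.42 and 2.24 CPM to 25.6 and 41.6 CPM (4.08 ± 0.30, adjusted p = 1.91e-07), and Tpm1 (tropomyosin 1) from 79.2, 98.2, 97.4 and 100.3 CPM to 292 and 530.1 CPM (2.20 ± 0.13, adjusted p = 3.37e-08). Ccn1, a matrix signal and YAP target, reached 62.6 and 57.6 CPM from between 3.91 and 9.8 CPM (3.20 ± 0.33), and Cnn2 (calponin 2) 56.9 and 71.5 CPM from between 8.71 and 19.3 CPM (2.51 ± 0.23). At 24 h of RA, Tagln stood at 1.49 and 2.31 CPM and Tpm1 at 82.7 and 96.0 CPM, inside or below their 0 h ranges, and between 24 and 48 h both were called higher (adjusted p = 5.59e-05 and 1.7e-05). Of 14 tested integrins 7 rose, 1 fell and 6 were not called. Itgb4, a laminin-binding beta chain, reached 41.3 and 12.8 CPM from between 3.6 and 9.17 CPM (1.93 ± 0.27, adjusted p = 5.22e-05), and Itgav 34.2 and 53.9 CPM from between 16.1 and 21.7 CPM (1.43 ± 0.24, adjusted p = 0.000279). The member that fell was Itga1, a collagen-binding chain (-2.72 ± 0.74, adjusted p = 0.00735), which was not called without 48 h replicate 2 (adjusted p = 0.0965). Itgb1, the common beta chain of laminin and collagen receptors, rose by 0.75 ± 0.11 to 791 and 886 CPM, and Itga6, a laminin-binding alpha chain, was not called (-0.23 ± 0.18, adjusted p = 0.313).

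Pluripotency genes fell on the whole but by moderate amounts. Of 40 genes 39 were tested, and 28 fell, 4 rose and 7 were not called (median log2 change -1.02). Pou5f1 (OCT4) stood at 2408, 1744, 2272 and 2036 CPM at 0 h and at 899.7 and 393 CPM at 48 h (-1.96 ± 0.19, adjusted p = 2.92e-06). Sox2 went from 830.2, 534, 462 and 452 CPM to 253 and 167 CPM (-1.52 ± 0.19, adjusted p = 2.79e-05), and Nanog from 281, 410.2, 290.3 and 269.6 CPM to 134 and 122 CPM (-1.19 ± 0.19, adjusted p = 0.000222). Both 48 h libraries lay below every 0 h library for these 3 core factors, and none of the factors was near 0.

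Larger decreases were seen in targets and partners of those factors. Tdgf1 (Cripto), a co-receptor of Nodal, went from 227, 276, 354 and 366 CPM to 29.0 and 10.7 CPM (-3.94 ± 0.39, adjusted p = 1.69e-05). Utf1, a chromatin factor of embryonic stem cells, went from 655, 339, 615 and 332 CPM to 111 and 44.1 CPM (-3.05 ± 0.29, adjusted p = 7.82e-06). Tdh, the threonine dehydrogenase that mouse stem cells need for nucleotide synthesis, went from 519, 357, 524 and 419 CPM to 62.2 and 53.2 CPM (-3.02 ± 0.19, adjusted p = 5.84e-08). Fgf4, the growth factor that embryonal carcinoma cells secrete, went from 151, 199.9, 212 and 158 CPM to 22.6 and 19.1 CPM (-2.94 ± 0.26, adjusted p = 2.01e-06). Otx2, a homeobox factor of the epiblast, went from 13.4, 59.7, 97.05 and 26.5 CPM to 1.33 and 4.84 CPM (-3.52 ± 0.59, adjusted p = 0.000574), with a wide spread at 0 h, and its call was lost without the set term (adjusted p = 0.0556). Dppa3 (Stella), a germ cell and naive stem cell gene, went from between 0.451 and 3.79 CPM to no count in either 48 h library, and was not called without 48 h replicate 2 (adjusted p = 0.147). Zfp42 (REX1) and Esrrb changed by less, by -1.46 ± 0.17 and -0.73 ± 0.13. Tbx3, Klf4, Lefty1 and Spp1 were the members that rose. Tbx3, a T-box factor also used by extraembryonic endoderm, went from 148, 49.1, 36.9 and 45.0 CPM to 577 and 404 CPM (2.74 ± 0.20, adjusted p = 4.81e-07), and Klf4 from 27.6, 16.1, 9.27 and 12.6 CPM to 119 and 54.5 CPM (2.19 ± 0.24, adjusted p = 9.75e-06). Lefty1, a Nodal inhibitor, rose by 3.09 ± 0.27 to 238 and 212 CPM. Spp1 rose by 0.80 ± 0.17, and its call was lost without the set term (adjusted p = 0.125) and without 48 h replicate 1 (adjusted p = 0.0737).

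Of 8 genes that write or erase DNA methylation 5 fell, 1 rose and 2 were not called. The called share was 75.0%, against 48.8% of all tested genes. Dnmt3l, the cofactor of de novo methylation, went from 159.6, 184, 342 and 190.0 CPM to 37.3 and 34.7 CPM (-2.46 ± 0.28, adjusted p = 2.23e-05). Tet1 fell by 1.63 ± 0.32 on the log2 scale (adjusted p = 0.00166) while Tet3, a related dioxygenase, rose by 1.17 ± 0.20 (adjusted p = 0.000248).

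Genes of growth and division were lower as groups. On the MYC and ribosome biogenesis list 30 of 36 members fell, 2 rose and 4 were not called (median log2 change -1.03). Myc itself went from 281, 132, 224 and 232 CPM to 42.4 and 25.2 CPM (-2.94 ± 0.25, adjusted p = 1.12e-06), while Mycn was not called at 105 to 257 CPM at 0 h and 129 and 169 CPM at 48 h (0.04 ± 0.24, adjusted p = 0.896). Mycn stood at 18.1 and 45.9 CPM at 24 h, below all 0 h and 48 h libraries, and was called higher at 48 h than at 24 h (2.38 ± 0.29, adjusted p = 0.000557; 0.174 without the set term). Rrn3, the initiation factor of RNA polymerase I, fell by 1.95 ± 0.14, and Ncl (nucleolin) by 1.22 ± 0.12 to 1267 and 1510.0 CPM. Mycl and Mxd4, a MYC antagonist, were the members that rose (2.42 ± 0.28 and 1.67 ± 0.15).

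Of 26 genes of nucleotide, serine and one-carbon synthesis 22 fell, 0 rose and 4 were not called (median log2 change -0.90). Odc1 and Srm, early enzymes of polyamine synthesis, fell by 1.52 ± 0.19 and 1.77 ± 0.23, Gldc, of the glycine cleavage system, fell by 1.70 ± 0.16, and Gart, of purine synthesis, fell by 1.36 ± 0.11 from between 527 and 592 CPM to 205 and 219 CPM. On the DNA replication list 25 of 29 fell, 0 rose and 4 were not called (median -0.59). Mcm5, a subunit of the replicative helicase, went from 1118, 990.2, 1090.0 and 922 CPM to 565 and 490.1 CPM (-1.02 ± 0.12, adjusted p = 1.16e-05). Pcna, the replication clamp, went from 529, 207, 236 and 203 CPM to 112 and 107 CPM (-1.47 ± 0.22, adjusted p = 0.000113), with 0 h replicate 1 far above the other 0 h libraries. On the mitosis list 13 of 24 fell, 1 rose and 10 were not called (median -0.36), and 6 were called lower without 48 h replicate 2. Cdc20, an activator of the anaphase-promoting complex, had the largest change of those (-0.93 ± 0.20, adjusted p = 0.00163), and was not called without 48 h replicate 2 (adjusted p = 0.0718).

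Regulators of the G1 phase split, with 10 of 26 higher, 11 lower and 5 not called, and 7 were called lower without the set term. The called share was 80.8%, against 48.8% of all tested genes. Gas1, a membrane protein first found in growth-arrested cells, went from 5.56, 1.3, 1.79 and 1.75 CPM to 93.7 and 73.4 CPM (4.93 ± 0.30, adjusted p = 5.64e-08). Cdkn2a, which encodes cyclin-dependent kinase inhibitors, went from 5.26, 4.84, 6.74 and 4.77 CPM to 20.8 and 21.2 CPM (1.90 ± 0.26, adjusted p = 5.15e-05), and Cdkn1b (p27) rose by 0.90 ± 0.16. Ccnd1 (cyclin D1) went from 224, 196, 181 and 135 CPM to 85.7 and 55.5 CPM (-1.51 ± 0.16, adjusted p = 5.4e-06), and E2f4 fell by 1.56 ± 0.14 to 185 and 170.0 CPM. Cdkn1c (p57), an inhibitor, ran the other way at -1.99 ± 0.36 (adjusted p = 0.000536), and was not called without the set term (adjusted p = 0.0974).

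**Figure D4:**
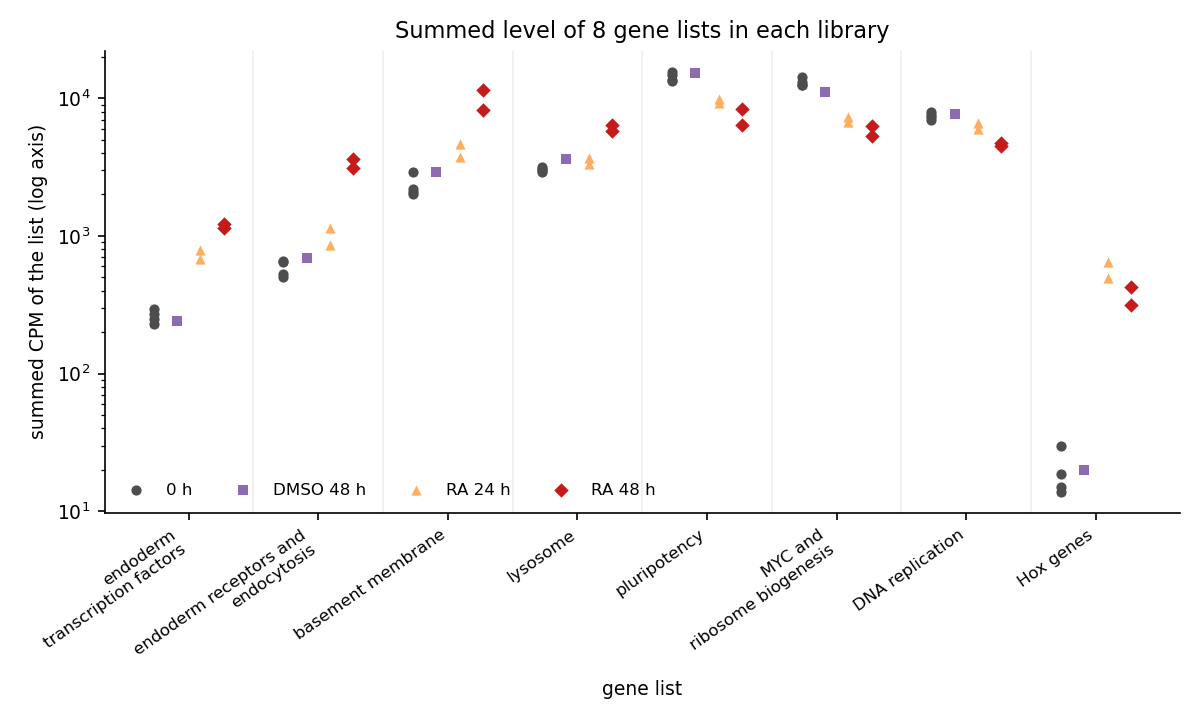
Summed level of the members of 8 gene lists in each library, as CPM on a log axis, for 0 h (4 libraries), RA at 24 h (2), RA at 48 h (2) and DMSO at 48 h (1). The basement membrane sum lay between 2027 and 2908 CPM at 0 h and at 11460 and 8202 CPM at 48 h of RA, and the MYC and ribosome biogenesis sum between 12400 and 14340 CPM and at 5332 and 6328 CPM.

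Many genes of the retinoid pathway itself still differed from 0 h at 48 h. Of 27 tested members 18 were higher, 5 lower and 4 not called (median log2 change 2.17, the same with Cyp26b1 at its lower bound). The called share was 85.2%, against 48.8% of all tested genes. Some members, Cyp26b1 among them, passed the filter for low counts through RA libraries, so this count is not read as support. Rarb, the receptor gene with a classical RA response element, stood at 0.601, 0.466, 0.843 and 1.17 CPM at 0 h and at 47.5 and 54.2 CPM at 48 h (6.03 ± 0.24, adjusted p = 1.36e-09). Cyp26a1, the enzyme that breaks down RA, went from 1.65, 6.15, 7.48 and 2.72 CPM to 182 and 236 CPM (5.71 ± 0.36, adjusted p = 7.12e-07). Cyp26b1, another such enzyme, had no count at 0 h and 14.4 and 25.9 CPM at 48 h, at least 257-fold higher. Dhrs3, a retinal reductase, went from 0.451, 0.559, 0.738 and 0.875 CPM to 52.0 and 40.0 CPM (5.91 ± 0.28, adjusted p = 5.09e-09). Both 48 h libraries were far above all 0 h libraries for these genes.

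The promoters of Rarb and Cyp26a1 are shown because each holds the kind of repeat that retinoid receptors bind. Windows run from 250 bases before to 50 bases after the RefSeq start on build GRCm38.p6. The motif searched, on both strands, was GNTCA followed after any 6 bases by GNTCA, a direct repeat of hexamers spaced by 5 bases, and 0.861% of 32851 promoters of this length held it. Capitals mark the match, which starts 52 bases before the start of Rarb and lies on the opposite strand, 32 bases before the start, in Cyp26a1.
Rarb, chr14:16575427-16575726, minus strand: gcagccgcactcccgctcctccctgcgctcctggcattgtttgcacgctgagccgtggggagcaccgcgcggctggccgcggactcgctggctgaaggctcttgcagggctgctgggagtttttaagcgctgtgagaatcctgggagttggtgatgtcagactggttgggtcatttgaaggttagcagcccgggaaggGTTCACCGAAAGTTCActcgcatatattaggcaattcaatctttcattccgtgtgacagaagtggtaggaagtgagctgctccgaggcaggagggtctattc
Cyp26a1, chr19:37697558-37697857, plus strand: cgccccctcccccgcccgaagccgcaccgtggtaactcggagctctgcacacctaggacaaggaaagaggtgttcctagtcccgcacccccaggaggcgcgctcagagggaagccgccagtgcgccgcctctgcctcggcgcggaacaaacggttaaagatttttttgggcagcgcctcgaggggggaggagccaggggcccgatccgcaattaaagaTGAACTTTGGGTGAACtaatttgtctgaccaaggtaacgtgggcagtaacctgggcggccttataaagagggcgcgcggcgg

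Other genes of the pathway had passed their peak by 48 h or fell. Stra8, named for its response to RA, stood at 0.15, 0.652, 0 and 1.75 CPM at 0 h, at 259.5 and 225 CPM at 24 h and at 90.1 and 73.8 CPM at 48 h. Stra6, the retinol importer, went from at most 0.316 CPM at 0 h to 92.6 and 71.4 CPM at 24 h and 37.1 and 34.8 CPM at 48 h, and Crabp2, an RA carrier, from between 5.21 and 10.1 CPM to 356 and 226 CPM and then 166 and 115 CPM. All 3 genes were lower in both 48 h libraries than in both 24 h libraries and above every 0 h library, but the calls between 24 and 48 h (adjusted p = 0.0221, 0.00709 and 0.00116) were lost without the set term (adjusted p = 0.252, 0.185 and 0.178), and those of Stra8 and Stra6 also without 24 h replicate 1 (adjusted p = 0.192 and 0.112), 48 h replicate 1 (adjusted p = 0.0691 and 0.0538) or 48 h replicate 2 (adjusted p = 0.176 and 0.096). Stra8 was also not called with no filter on low counts (adjusted p = 0.103) or by DESeq2 (adjusted p = 0.414). Rarg, the main RAR of F9 cells, went from 651, 511, 686 and 521 CPM to 178 and 106 CPM (-2.20 ± 0.17, adjusted p = 3.31e-07), and Rxrg from 7.36, 8.29, 9.27 and 23.4 CPM to 0.923 and 0.334 CPM (-4.30 ± 0.64, adjusted p = 0.000143). Rara fell by 0.86 ± 0.17 (adjusted p = 0.000705) and was not called without the set term (adjusted p = 0.201), and Rxra was not called (0.12 ± 0.18, adjusted p = 0.626).

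Hox genes, which encode position along the body axis and answer RA in order along their clusters, included members without a count at 0 h. Of 38 genes 34 were tested, and 31 rose, 2 fell and 1 was not called (median log2 change 5.36). The median was 5.03 with genes without a count at 0 h set at their lower bound. With genes of 1 to 3 counts also at the lower limit of their ratio, it was 4.45. At 0 h 4 of the 34 had no count and 10 had 1 to 3 counts over the 4 libraries, so they passed the filter for low counts through RA libraries, and the count is not read as support. The 4 untested members stayed at or below 0.601 CPM at 0 h and 48 h. Hoxb2 stood at 0, 0.186, 0 and 0.0973 CPM at 0 h and at 41.2 and 51.2 CPM at 48 h, a ratio of counts of 579 (interval 197 to 2810). Hoxa5 went from 0, 0.279, 0.105 and 0.292 CPM to 42.8 and 30.9 CPM (7.30 ± 0.33, adjusted p = 4.13e-09), both below its 24 h levels of 114 and 55.6 CPM. Hoxb5 reached 15.9 and 20.2 CPM from at most 0.0973 CPM, a ratio of counts of 339 (interval 93.3 to 2810), and Hoxb6, without a count at 0 h, 5.43 and 5.84 CPM, at least 70.1-fold higher. Hoxc8 and Hoxc9 were later: without a count at 0 h, they stood at 0.106 and 0.427 CPM and at 0 and 0.256 CPM at 24 h, and at 2.46 and 13.3 CPM and at 2.67 and 10.5 CPM at 48 h. They were at least 104-fold and 86.6-fold higher than at 0 h, and DESeq2 called neither (adjusted p = 0.141 and 0.152). The pair that fell was Hoxd11 and Hoxd13. Hoxd13 changed by -1.90 ± 0.69 (adjusted p = 0.0351) and lost its call without 0 h replicate 1 (adjusted p = 0.0971), 0 h replicate 4 (adjusted p = 0.0756) or either 48 h replicate (adjusted p = 0.116 and 0.193).

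In the FGF and ERK pathway 7 of 21 genes rose, 7 fell and 7 were not called, with 4 higher without 48 h replicate 2. The share called was 66.7%, against 48.8% of all tested genes. Spry4 and Etv4, readouts of ERK signalling, went from 541, 376, 428 and 400.2 CPM to 81.3 and 51.4 CPM (-2.85 ± 0.15, adjusted p = 1.41e-08), and from 416, 234, 317 and 328 CPM to 55.0 and 36.0 CPM (-3.01 ± 0.18, adjusted p = 3.5e-08). Fgfr2, a receptor of primitive endoderm, rose from between 10.5 and 17.9 CPM to 83.5 and 90.4 CPM (2.80 ± 0.25), Fgf3 from at most 2.14 CPM to 26.9 and 18.9 CPM (4.04 ± 0.40), and Fgf10 from at most 0.751 CPM to 8.1 and 39.4 CPM (5.79 ± 0.56). The ligand Fgf4, given above, and both readouts were lower in both 48 h libraries than in any 0 h library.

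In the WNT pathway 13 of 26 genes rose, 2 fell and 11 were not called, a called share of 57.7% against 48.8% of all tested genes, and without the set term 0 were lower. Sfrp5, a secreted WNT inhibitor of endoderm, went from 1.65, 1.02, 1.37 and 1.56 CPM to 118 and 147 CPM (6.58 ± 0.25, adjusted p = 7.62e-10). Wls, the carrier that WNT proteins need for secretion, went from 4.06, 10.6, 3.69 and 6.81 CPM to 105 and 182 CPM (4.72 ± 0.29, adjusted p = 8.39e-08). Dkk3 reached 15.5 and 16.0 CPM from at most 0.745 CPM (5.55 ± 0.50, adjusted p = 1.29e-06). Axin2 and Sp5, direct targets of the pathway, were not called. In the BMP, Nodal and activin pathway 13 of 28 tested genes rose, 7 fell and 8 were not called, a called share of 71.4% against 48.8%, and without the set term 4 were lower. Bmp4 went from 389.8, 116, 169.9 and 102 CPM to 79.2 and 21.2 CPM (-2.38 ± 0.25, adjusted p = 7.16e-06), and was not called without the set term (adjusted p = 0.0733). Bmp6 ran the other way, from between 0.948 and 1.35 CPM to 22.8 and 15.7 CPM (3.77 ± 0.37, adjusted p = 2.76e-06), as did Bmp2, given above. The inhibitory Smad6 rose to 34.5 and 25.9 CPM from at most 3.63 CPM (3.37 ± 0.24).

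Among all tested genes 48.8% were called, against 10.0% of the tested genes of cholesterol and lipid synthesis, 47.6% of those of glycolysis and hypoxia and 52.4% of those of oxidative phosphorylation. Of 20 genes of cholesterol and lipid synthesis 1 rose, 1 fell and 18 were not called, and the calls of that pair, Scd2 (0.50 ± 0.19, adjusted p = 0.0399) and Idi1 (-0.80 ± 0.28, adjusted p = 0.0287), were lost without 0 h replicate 2 (adjusted p = 0.0844 and 0.0671), among other alternatives. Without 48 h replicate 1 the list had 0 higher and 5 lower, and without 48 h replicate 2 it had 3 higher and 0 lower. The number called higher lay between 0 and 2 when any one 0 h library was left out. The 48 h libraries lay on both sides of 0 h, with a summed level of 7963 and 3957 CPM against between 4449 and 6607 CPM. Among glycolysis and hypoxia genes 4 of 21 rose, 6 fell and 11 were not called. Without 0 h replicate 1 or 48 h replicate 1 the number that fell was 11, and without 48 h replicate 2 it was 2. Pdk1, the kinase that keeps pyruvate out of mitochondria, went from 181, 199.8, 203 and 172 CPM to 58.1 and 43.5 CPM (-1.89 ± 0.16, adjusted p = 6.09e-07), and Slc2a3, a glucose transporter, from 956, 1120.0, 848 and 802 CPM to 1588 and 2104 CPM (1.04 ± 0.16, adjusted p = 0.000117). Of 21 genes of oxidative phosphorylation 11 fell, 0 rose and 10 were not called (median log2 change -0.37), with 3 lower without 48 h replicate 2 and 3 without the set term.

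Markers of other cell types that F9 cells could give rise to moved in both directions. The 6 mesoderm markers summed to between 3.005 and 4.426 CPM at 0 h and to 3.896 and 4.253 CPM at 48 h, with 2 higher and 1 lower. On a longer list of 15 tested mesoderm genes, 7 rose and 3 fell, and 4 rose when either 48 h replicate was left out. Meox1 on that list, a homeobox gene of somites, had the largest increase, from 0, 0.186, 0 and 0.0973 CPM to 9.64 and 19.2 CPM, a ratio of counts of 185 (interval 62.6 to 900.0). On a longer list of 13 neural genes 4 rose and 3 fell, and 1 rose without 48 h replicate 2. Of 5 neural markers 1 was higher and 2 lower, Neurod1 had no count at 48 h, and the sum went from between 155.0 and 234.4 CPM to 126.8 and 99.91 CPM. A longer list of 11 tested trophoblast genes had 5 higher and 1 lower, with 2 higher without 48 h replicate 2 and 3 without the set term. Of 4 tested trophoblast markers 1 rose, Gata3, to 11.3 and 15.4 CPM from between 1.05 and 2.63 CPM (2.92 ± 0.32), and 1 fell, and Elf5, a defining marker, had no count at 0 h and at most 0.307 CPM at 48 h. A longer list of 5 tested gut and liver genes had 3 higher and 0 lower, with 1 higher without 48 h replicate 2. Of 6 gut and liver markers 2 could be tested and Cxcr4 rose, to 15.6 and 18.3 CPM from at most 1.5 CPM (4.10 ± 0.37), while Alb and Fabp1 had no count in any of these libraries. Of 13 tested germ cell and meiosis genes 5 rose and 0 fell, with 3 higher without 0 h replicate 1, without 48 h replicate 1 or without the set term. The sum of that list went from between 54.54 and 106.9 CPM to 193.3 and 208.5 CPM. Its called share was 38.5%, below the 48.8% of all tested genes. On the longer mesoderm, neural and trophoblast lists the called shares were 66.7, 53.8 and 54.5%, above that of all tested genes. The part of these cell types in the counts above was not tested.

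The level of the endoderm genes at 48 h was set beside 24 h of RA and beside DMSO at 48 h. Against 24 h, 1781 of 16155 genes were called (11.0%), 1034 higher (6.40%) and 747 lower (4.62%), and 114 without the set term. Endoderm transcription factors were higher than at 24 h in 9 of 20 cases and receptors and endocytic genes in 14 of 20, with 0 lower in either list, and in 1 and 2 cases without the set term. Visceral endoderm products were higher in 8 of 11 tested cases and parietal genes in 12 of 23. Without the set term they were higher in 0 and 3 cases. Lgmn showed the step clearly, at 50.8 and 50.4 CPM at 24 h and 184 and 175 CPM at 48 h (1.83 ± 0.17, adjusted p = 5.59e-05), as did Lamb1, at 139 and 92.5 CPM and then 922 and 700.3 CPM (2.82 ± 0.22, adjusted p = 1.7e-05). Dab2 went from 24.1 and 11.8 CPM at 24 h to 574 and 612 CPM (5.17 ± 0.94, adjusted p = 0.014), but that call was lost without the set term (adjusted p = 0.0808), without 24 h replicate 1 (adjusted p = 0.116), without 24 h replicate 2 (adjusted p = 0.065) and without 48 h replicate 2 (adjusted p = 0.0509). Foxa1 was already at 48.2 and 47.2 CPM and Gata6 at 131 and 85.1 CPM at 24 h, and neither was called between 24 and 48 h (0.48 ± 0.20, adjusted p = 0.136, and 0.34 ± 0.37, adjusted p = 0.6). At 24 h Foxa1 and Gata6 stood above every 0 h library, near their 48 h levels, while Lgmn, Lamb1 and Dab2 were far below their 48 h levels in both 24 h libraries. Fst (follistatin), an activin antagonist, was the 1 gene of the list of receptors, endocytic proteins and signals not called against 0 h. It stood at 4.36, 13.6, 9.8 and 11.1 CPM at 0 h, at 0 and 0.513 CPM at 24 h and at 4.72 and 13.8 CPM at 48 h. It was called higher at 48 h than at 24 h (5.09 ± 0.61, adjusted p = 0.000266; 0.0906 without the set term, and 8.53 on the log2 scale without 24 h replicate 2) and not against 0 h (0.23 ± 0.35, adjusted p = 0.619).

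Against the single DMSO library at 48 h, which was assumed to vary like the other groups, 3892 genes were called (24.1%), 2042 higher (12.6%) and 1850 lower (11.5%). This count fell to 1286 without the set term, 2256 without 48 h replicate 1 and 1409 with only these 3 libraries, where no set term could be used. Of the tested endoderm transcription factors 15 of 20 were higher than in DMSO and 0 lower, of receptors and endocytic genes 17 of 20 and 0, of basement membrane genes 14 of 24 and 0, and of pluripotency genes 3 of 39 were higher and 22 lower. Without the set term these counts were 11 of 20, 10 of 20 and 9 of 24 higher with 0 lower, and for pluripotency 0 higher and 15 lower. In DMSO at 48 h Sox17 stood at 1.43 CPM, Plat at 0.648 CPM, Col4a1 at 74.9 CPM and Pou5f1 at 2689 CPM, each on the 0 h side of both RA libraries. The comparisons with 0 h, with 24 h and with DMSO share the 48 h libraries, so their counts are not independent of each other. The endoderm lists hold genes that passed the filter for low counts through RA libraries, so their counts are not read as support.

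**Figure D5:**
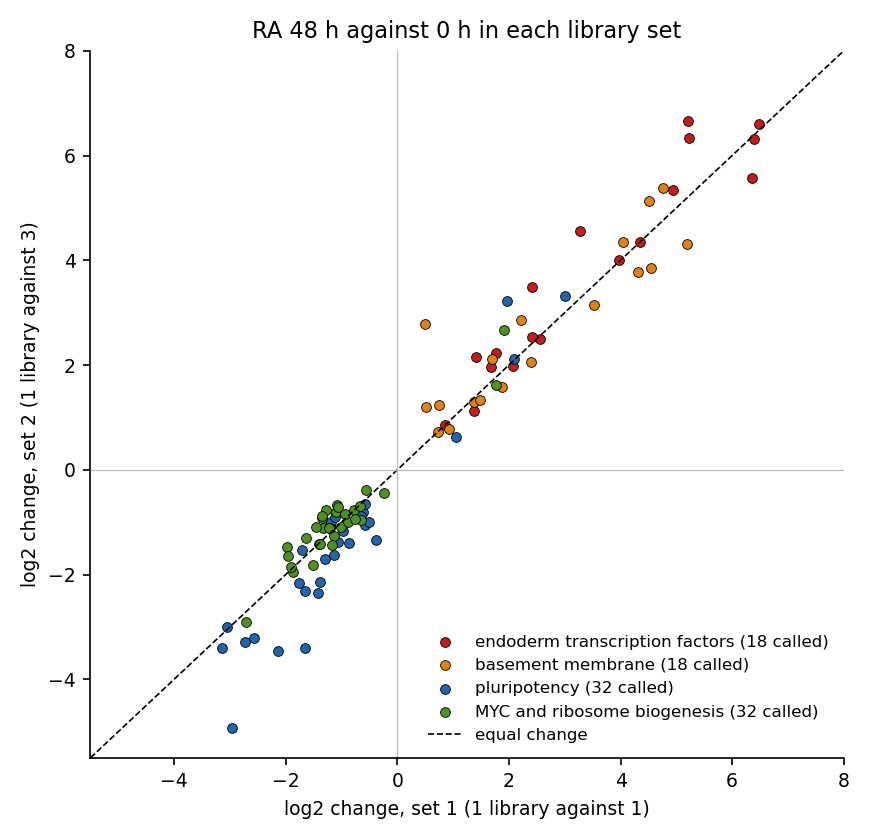
Log2 change at 48 h of RA against 0 h within library set 1 (horizontal axis, 1 library each) and within set 2 (vertical axis, 1 library against 3), for called members of 4 gene lists; the diagonal marks equal change. Points scatter about the diagonal, for example Col4a1 at 4.50 and 5.13 and Pou5f1 at -1.42 and -2.35.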

How the data were processed

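Messenger RNA was sequenced from F9 cells, and the authors deposited 1 table of raw read counts per library. The reads were aligned with TopHat2 2.0.7 to mouse build mm9 and counted with HTSeq, per the submitters' processing notes. Whether HTSeq counted by strand is not given in the sources used here, so overlapping and antisense genes share reads in an unknown way, and reads of near-identical copies such as pseudogenes are uncertain. Each deposited table lists counts for 36814 Ensembl genes, of which 31841 had a symbol, plus 5 rows that name no gene and held 72.52 to 76.78% of all counts. Those 5 rows were left out.

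Genes were tested with edgeR 4.0.16 (limma 3.58.1, R 4.3.3), by the quasi-likelihood F-test with robust estimation, TMM normalization and the default filter on low counts, which left 16155 genes. Genes low at 0 h could pass that filter through RA libraries alone, and the list counts include such genes. All 14 mRNA libraries were fitted together with a term for each group and a block for the library set, leaving 6 residual degrees of freedom, and p-values were adjusted by Benjamini-Hochberg over all tested genes. Standard errors were derived from the log2 change and its F statistic. On data simulated for 48 h against 0 h over 16155 genes, 58% of genes changed 2-fold and 97% of genes changed 4-fold were called, with 8 unchanged genes called. At each size 100 genes were changed, far fewer than were called in the data, and they were drawn from genes above a minimum mean count. These rates therefore do not describe genes with few counts. DESeq2 1.42.0 and other filters, normalizations, blocks and left-out libraries were tried as alternatives. Some were added for the lists and genes compared with 24 h and DMSO after seeing the data. Ratios for genes with 1 to 3 counts at 0 h carry exact 95% intervals, and genes without a count there are set against a floor of 3 counts over the 4 libraries.

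Replicate number and library set are the same split for most libraries. The difference between replicates 1 and 2 correlated between groups at 0.648 to 0.775 (10 pairs of groups), and the labels do not say what the number marks. Replicates differed by more than sampling noise, with a chi-squared of 10.8 to 17.96 per degree of freedom between 0 h libraries of the second set. Between libraries of different sets it was 34.51 to 36.93 for 0 h replicate 1 against the other 0 h libraries, and 40.97 for the 48 h libraries.

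Members, gene lists and tests were chosen with earlier results of these data known. The genes named were the 12 largest increases and the 12 largest decreases, any member of the endoderm, secretion and pluripotency lists, and, from each other list, up to 6 called members with the largest change and those called against the majority. Some genes that the rule names are not reported here. Axin2, Ccnd1, Cdh1, Cdh2, Crabp2, Dsp, E2f4, Fgfr2, Hoxa5, Itga6, Itgb1, Krt18, Krt8, Mycn, Ncl, Rxra, Smad6, Sp5 and Tpm1 fall outside that rule and were chosen after their values were seen. Promoter windows come from RefSeq on GRCm38.p6, a build other than that of the counts, and were matched by symbol.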

Additional observations from a re-analysis of the deposited data

Results flagged for a closer look

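Among 167 named genes with differing values at 0 h, 18 had 1 of the 4 untreated libraries far from the other 3, and chance flags about 1 in 20 such groups. Replicate 1, the one 0 h library of the first set, was the library apart in 10 of them. It was the highest for Bmp2 at 1.804 CPM against at most 0.5273 in the others, for Foxa2 at 0.6014 against at most 0.2109 and for Gas1 at 5.563 against at most 1.793 CPM. Matrix genes were also highest there, Hspg2 at 215.6 CPM against at most 103.9, Lama1 at 107.2 against at most 50.32 and Lamc1 at 395.1 against at most 308.8 CPM. Pcna stood at 528.9 CPM against at most 236.4, Tbx3 at 147.6 against at most 49.11 and Mxd4 at 20.9 against at most 16.59 CPM, while Tpm1 was lowest there at 79.23 CPM against at least 97.44. In replicate 2, Lgmn (34.01 CPM), Nanog (410.5 CPM) and Ttr (0.09318 CPM, with no count in the others) were highest, and Loxl1 was lowest (1.864 CPM). In replicate 3, Dnmt3l (342.2 CPM) and Gart (592.7 CPM) were highest and Cdh2 (9.913 CPM) was lowest, and in replicate 4 Rxrg was highest (23.46 CPM). All of these genes but Loxl1 kept their call at 48 h against 0 h when the library standing apart was left out, and Loxl1 had none.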

How the results depend on the processing

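For 48 h of RA against 0 h, 7881 genes were called, and RLE normalization (7884), no filter on low counts (7621), a limit of 1 CPM in 4 libraries (7339), only the libraries of both groups (6855), DESeq2 (7378), the fit without 24 h replicate 1 (8242) and the replicate block on replicates 1 and 2 (7075) stayed within 1.5 times of it. Counts further off were 4766 without the term for the set, 5146 in the second set alone and 4012 with a log2 change of at least 1 required. Leaving out 1 library of these groups gave 5096 (without 48 h replicate 2) to 7660. For 48 h against 24 h, 1781 genes were called, with 114 without the set term, 179 in the second set alone, 1011 with the size limit, 2572 with the replicate block, and 707 (without 48 h replicate 1) to 2338 when 1 library was left out, with 784 without 48 h replicate 2 and 777 without 24 h replicate 1. Against DMSO at 48 h, 3892 genes were called, with 1286 without the set term, 1409 with only these 3 libraries, 2481 with the size limit, and 2256 (without 48 h replicate 1) to 2898 (without 48 h replicate 2). The size limit raised the share of higher among called genes to 69.1% (48 h against 0 h), 72.8% (against 24 h) and 67% (against DMSO), from 53%, 58.1% and 52.5%, and other scalings moved it by less. The cause of the lower counts without the set term was not tested, and the second set alone and each left-out library use fewer samples. The labels do not make the replicate number a pairing: the numbers coincide with the library set.

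Of 175 named genes tested against 0 h, 162 were called, 140 of them under all alternatives run, and 22 lost the call under at least 1, most often without the set term (11 genes). Against 24 h, 4 of 10 called genes kept the call under all of them. No call or direction of a named gene reversed under the alternatives run. The depth and the 2 libraries at 48 h limit genes below about 1 CPM, where a change of many-fold rests on few reads.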
